A study of Mus musculus with 52 samples.

Results

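The kinesin superfamily was taken as every gene symbol that begins with Kif and a number, without the kinesin-binding protein Kif1bp, which gave 39 of the 24421 symbols counted. By their best known role, 12 of these were placed as mitotic, 10 as ciliary and 11 as transport kinesins. Another 4 were kept apart (Kif2a, Kif12, Kif26a and Kif26b), and 2 were not placed because they are the antisense RNA Kif16bos and the pseudogene Kif4-ps. The rule used names only and no measured value, and it leaves out kinesins with other names, among them the mitotic motors Cenpe and Kifc1, which are described with the adaptors further on.

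Kinesins are motor proteins that hydrolyse ATP and, for most members, walk towards the plus ends of microtubules, while some take microtubules apart instead. Mitotic kinesins build and position the spindle, move chromosomes and complete cytokinesis, and many of their genes are transcribed mainly in G2 and M phase. In cilia, heterotrimeric kinesin-2 (Kif3a, Kif3b and the adaptor Kifap3) carries intraflagellar transport trains to the tip, from where cytoplasmic dynein-2 brings them back. Transport kinesins of the kinesin-1 and kinesin-3 families move organelles and vesicles in the cytoplasm. The transport list also holds Kif21a and Kif21b of the kinesin-4 family.

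RNA was sequenced from Cilia-APEX-IMCD3 cells, a mouse inner medullary collecting duct line, in 52 libraries that were made as 4 technical replicate libraries of each of 13 clones, where a clone stands for 1 line in 1 state. The labels do not pair the states, and the methods name fewer clones than are labelled, so a control or mutant line may occur in both states. The clones were fitted as separate, and a pairing across states was not tested. All clones came from single cells after transfection with the cytosine base editor BE4-Gam. Controls received the guide vector without a target sequence, and mutants were homozygous for a missense allele of Wdr34 or Wdr60, which encode the intermediate chains of dynein-2. Per the study's text, the Wdr34 p.Gly394Ser clone also carried an unintended heterozygous missense change in Wdr34. The Wdr60 clone also carried a heterozygous synonymous change. Ciliated cells were represented by the control clones A4, D8, G7 and H12 and by the mutant clones Wdr34-1, Wdr34-3 and Wdr60. Nonciliated cells were represented by the control clones AB, Co1, Co2 and Co3 and by the mutant clones Wdr34 and Wdr60. The labels give no allele for either ciliated Wdr34 clone, and per the study's text p.Gly394Ser was absent from the nonciliated set, which leaves Wdr34 p.Arg183Trp and Wdr60 p.Ala911Val there. Ciliation was induced with starvation medium per the methods, whereas the labels give the same growth medium for all libraries, so that ciliation, serum and the separate rounds of sequencing cannot be told apart. A missense change does not show in counts per gene, so the genotypes were taken from the labels.

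Library totals ranged from 14816218 to 28084979 counts (median 17414011.5), and kinesins took 0.309 to 0.373% of the counts of a clone. Pax2, Pax8 and Cdh16, markers of kidney tubule epithelium, were present in every clone, whereas Aqp2, the collecting duct water channel, was at or near 0. The ciliated control clone G7 and the nonciliated control clone Co2 stood apart, with Epcam, an epithelial adhesion molecule, at 13.5 and 2.86 CPM (counts-per-million) against 182 to 836 CPM in the other clones. Cdh1 was likewise at 14.4 and 4.22 CPM in these clones against 241 to 649 CPM elsewhere. Summed over the kidney epithelium list of 11 genes, G7 held 1892 and Co2 1153 CPM, the other 11 clones 1955 to 4296 CPM. The lowest of these other clones was the ciliated mutant Wdr34-3, close to G7. The fibroblast list summed to 31.6 CPM in the ciliated mutant clone Wdr34-3, mostly from Dcn (29.2 CPM), and to at most 5.42 CPM in each other clone. Changes of most named genes are therefore also given without both clones.

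The clone was the unit of every comparison between states and genotypes. CPM values are scaled by TMM, a clone value is the mean of its 4 libraries, and log2 fold changes with their standard errors (SE) and Benjamini-Hochberg adjusted p come from edgeR's quasi-likelihood test on summed counts of the 13 clones over 13994 genes. Of the 39 kinesins, 32 passed the filter on low counts. The 7 that did not were Kif2b with 0 counts, Kif4-ps with 5, Kif1a and Kif19a with 6 each, Kif16bos with 34, Kif26a with 37 and Kif26b with 166 counts over all 52 libraries.

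**Figure D1:**
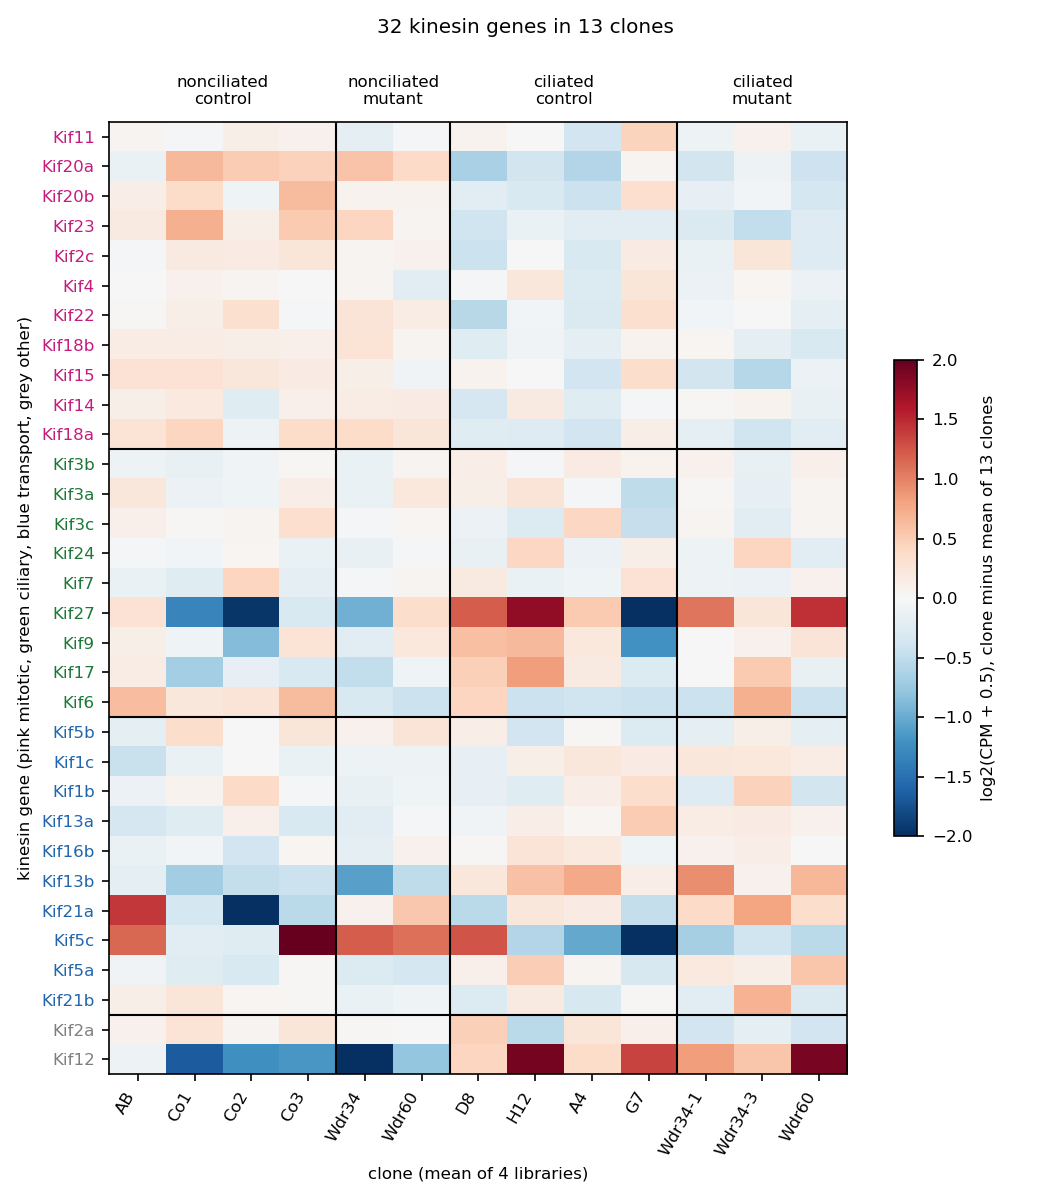
Level of the 32 tested kinesins (rows) in the 13 clones (columns, mean of 4 libraries), as log2(CPM + 0.5) minus the mean of the gene over the clones, with gene names coloured by role and the colour scale ending at 2 in either direction. Kif12 and Kif13b are red in the ciliated and mostly blue in the nonciliated clones, most mitotic kinesins run the other way in weaker colour, and Kif27, Kif21a and Kif5c vary from clone to clone within a state.

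Kinesins differed widely in level. Per kilobase of annotated exon, Kif5b, the heavy chain of kinesin-1 found in most tissues, was the highest kinesin in control clones of both states, at 91.1 ± 15.5 CPM per kb in ciliated and 107 ± 17.3 CPM per kb in nonciliated cells (SD, n = 4 clones). In ciliated controls it was followed by Kif11, the motor that pushes spindle poles apart, at 71.6 ± 16.8 CPM per kb and by Kif1c, a kinesin-3 that carries vesicles, at 70.3 ± 7.99 CPM per kb. In nonciliated controls the next places were held by Kif20a (91.7 ± 19.7 CPM per kb), Kif23 (79.3 ± 15.8) and Kif11 (71.2 ± 2.75). The order is loose, because the clone ranges of neighbours overlapped in 30 of 31 neighbouring pairs in ciliated and in 22 of 31 in nonciliated controls. Kif3a, at 23.3 ± 4.93 and 24.3 ± 2.75 CPM per kb, was the highest ciliary kinesin in both orders. At the low end of the ciliated order stood Kif17, Kif5a, Kif6 and Kif21b, from 0.267 ± 0.129 down to 0.0118 ± 0.0113 CPM per kb.

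The first comparison asked how kinesin transcripts differ between ciliated and nonciliated control clones. Kif12 and Kif13b were higher in ciliated cells, and the mitotic kinesins Kif18a, Kif20a and Kif23 were lower. These 5 of 32 tested members are 15.6% of them, against 18.4% of all genes called. With each library as a sample, which takes technical libraries as independent, 18 of 30 kinesins were called, against 61.9% of genes. By role, 3 of 11 mitotic kinesins fell and 0 rose, 0 of 9 ciliary kinesins were called in either direction, 1 of 10 transport kinesins rose, and 1 of the other 2 rose. Across all genes, 8.98% were called higher and 9.46% lower.

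Among mitotic kinesins, Kif23 is the motor subunit of centralspindlin, which organises the spindle midzone and the cytokinetic furrow (gene at chr9:61917277-61946810, minus strand, GRCm38.p6). It measured 155, 173, 175 and 185 CPM in the ciliated controls D8, A4, G7 and H12, and 221, 230, 293 and 334 CPM in the nonciliated controls Co2, AB, Co3 and Co1. The groups did not overlap, and every nonciliated control lay above every ciliated one. Kif23 fell by 0.66 on the log2 scale (SE 0.15, adjusted p = 0.0134), which is 36.8% lower, and the call held with each clone or each replicate number left out. It was -0.76 without G7 and Co2 (adjusted p = 0.0135).

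Kif20a brings the chromosomal passenger complex to the midzone for cytokinesis. It measured 176, 183, 214 and 288 CPM in D8, A4, H12 and G7, and 253, 383, 394 and 436 CPM in AB, Co3, Co2 and Co1. G7, the highest ciliated control, lay above AB, the lowest nonciliated one, and no other clones crossed. The log2 fold change was -0.78 (SE 0.19, adjusted p = 0.0181), 41.7% lower in ciliated cells, and the call was lost without Co1 (adjusted p = 0.0621). The value was -0.92 without G7 and Co2 (adjusted p = 0.0114). The annotated exons of Kif20a overlap those of Cdc23 on the opposite strand over 31.8% of their bases, and the strand setting of the counting is not given in the sources used here, so reads of the pair cannot be told apart if strand was not used.

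Kif18a is a kinesin-8 that dampens chromosome movements at the plus ends of kinetochore microtubules (chr2:109280738-109341749, plus strand, GRCm38.p6). Its levels were 34.4, 37.4, 37.7 and 49.4 CPM in A4, H12, D8 and G7, and 41.9, 54.1, 58.0 and 60.3 CPM in Co2, AB, Co3 and Co1. The groups overlapped through G7 and Co2, the clones low in Epcam. Its log2 fold change of -0.46 (SE 0.14, adjusted p = 0.0392) was the smallest among the called members, and the call was lost on leaving out any of 10 of the 13 clones and 2 of the 4 replicate numbers (adjusted p up to 0.162). Without both G7 and Co2 it was -0.68 (adjusted p = 0.0046).

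The other 8 tested mitotic kinesins did not pass the test. Of the 11 tested, 10 had negative estimates, with a median log2 fold change of -0.24 against 0.02 over all genes tested. Kif18b, which shortens astral microtubules, measured 79.1 to 98.5 CPM in ciliated and 101 to 103 CPM in nonciliated controls, so its groups did not overlap although its log2 fold change of -0.22 (SE 0.11) was not called (adjusted p = 0.175). Kif18b and Kif23 were the 2 members wholly below in ciliated controls, where 11.4% of all genes were, and Kif12 and Kif13b the 2 wholly above, where 9.98% of all genes were. Kif11 gave a log2 fold change of -0.02 (SE 0.14, adjusted p = 0.951), from 253, 331, 346 and 451 CPM in ciliated and 325, 341, 350 and 356 CPM in nonciliated controls. The chromokinesin Kif4 gave 0.00 (SE 0.12, adjusted p = 0.999). Without G7 and Co2 these were -0.30 for Kif18b, -0.15 for Kif11 and -0.06 for Kif4, none called (adjusted p = 0.108, 0.457 and 0.789), while Kif20b then passed at -0.73 (adjusted p = 0.0083). Summed over the mitotic list, ciliated controls held 1236 to 1834 CPM and nonciliated controls 1668 to 2019 CPM, the highest ciliated value being that of G7, where Mki67, a proliferation marker, was also highest (663 CPM against 330 to 511 CPM in the other clones). In bulk RNA, fewer cells in mitosis and less RNA per cell cannot be told apart.

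Other mitosis genes, a list of 16 genes without kinesins that holds cyclins, kinases, spindle and midzone factors, Cdc20, Top2a and Mki67, had 7 lower and 0 higher calls in the same comparison, where 9.46% of all genes were lower, with a median log2 fold change of -0.25. Bub1, a spindle checkpoint kinase, ranged from 93.4 to 131 CPM in ciliated and from 195 to 259 CPM in nonciliated controls, and fell by 0.94 (SE 0.13, adjusted p = 0.0023). Aurka, the centrosomal kinase, fell by 0.79 (SE 0.12, adjusted p = 0.0028), whereas Mki67 stood at -0.07 (SE 0.18, adjusted p = 0.818). Racgap1, the partner of Kif23 in centralspindlin, gave 0.09 (SE 0.15, adjusted p = 0.708).

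Most promoters of mitotic kinesins held the same short motif. Cell cycle genes of G2 and M phase are known for CHR elements, with letters such as TTTGAA, or in some genes TTCGAA, and for CCAAT boxes near the start site. In RefSeq promoters (GRCm38.p6, 250 bases before to 50 after the first listed start), 32 of the 39 members matched by symbol, and letters were searched on both strands. The called mitotic kinesin Kif20a had no match, while Kif2b, which had no counts, did. TTTGAA, read as TTCAAA on the other strand, occurred in 9 of 11 mitotic and 2 of 21 other kinesin promoters, against 18.1% of 27025 promoters of the same length. TTCGAA occurred in 0 of 11 mitotic promoters and 1.57% of all. CCAAT, read as ATTGG on the other strand, was in 7 of 11 mitotic and 8 of 21 other kinesin promoters, against 37.9% of all, and both TTTGAA and CCAAT were in 6 of 11 mitotic and 2 of 21 others, against 7.12% of all. The first listed start lies inside the annotated gene by 3852 bases for Kif2c and 1547 bases for Kif14, both of which hold TTTGAA, and by 9798, 2234 and 1668 bases for Kif27, Kif26a and Kif3a. Without these 5 and the antisense RNA Kif16bos, a choice made after seeing the data, TTTGAA was in 7 of 9 mitotic and 1 of 17 other kinesin promoters. The sequences below show the called Kif23, the uncalled Kif18b, Kif11 and Kif4, which hold both motifs, and the called Kif18a, which holds neither, each 5′ to 3′ on the strand of its gene with TTTGAA and CCAAT or their complements in capitals. They lie at chr9:61946750-61947049 (minus strand, Kif23), chr11:102925075-102925374 (minus strand, Kif18b), chr19:37376132-37376431 (plus strand, Kif11), chrX:100625815-100626114 (plus strand, Kif4) and chr2:109280488-109280787 (plus strand, Kif18a).
Kif23: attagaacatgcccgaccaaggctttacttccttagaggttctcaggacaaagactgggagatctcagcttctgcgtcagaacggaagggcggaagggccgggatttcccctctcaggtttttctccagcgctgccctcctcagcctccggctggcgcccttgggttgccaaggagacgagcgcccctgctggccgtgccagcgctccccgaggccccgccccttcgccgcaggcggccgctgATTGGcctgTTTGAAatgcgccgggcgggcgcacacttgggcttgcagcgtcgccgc
Kif18b: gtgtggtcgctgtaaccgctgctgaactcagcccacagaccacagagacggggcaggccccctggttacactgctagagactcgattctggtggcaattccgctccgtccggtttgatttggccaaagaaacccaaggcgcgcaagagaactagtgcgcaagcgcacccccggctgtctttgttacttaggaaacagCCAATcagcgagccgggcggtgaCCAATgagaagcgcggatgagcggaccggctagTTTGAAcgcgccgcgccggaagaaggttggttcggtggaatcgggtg
Kif11: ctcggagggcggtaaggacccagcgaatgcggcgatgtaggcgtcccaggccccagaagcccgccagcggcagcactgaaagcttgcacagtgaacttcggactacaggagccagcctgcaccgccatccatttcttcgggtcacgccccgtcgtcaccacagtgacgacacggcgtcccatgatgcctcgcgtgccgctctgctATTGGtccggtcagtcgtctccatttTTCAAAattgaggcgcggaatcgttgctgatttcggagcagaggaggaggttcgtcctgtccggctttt
Kif4: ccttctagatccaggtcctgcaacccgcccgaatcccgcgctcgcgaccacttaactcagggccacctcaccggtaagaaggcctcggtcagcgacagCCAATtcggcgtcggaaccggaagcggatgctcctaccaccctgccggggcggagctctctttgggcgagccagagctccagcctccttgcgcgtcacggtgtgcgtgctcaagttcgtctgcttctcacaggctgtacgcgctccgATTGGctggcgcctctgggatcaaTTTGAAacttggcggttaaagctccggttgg
Kif18a: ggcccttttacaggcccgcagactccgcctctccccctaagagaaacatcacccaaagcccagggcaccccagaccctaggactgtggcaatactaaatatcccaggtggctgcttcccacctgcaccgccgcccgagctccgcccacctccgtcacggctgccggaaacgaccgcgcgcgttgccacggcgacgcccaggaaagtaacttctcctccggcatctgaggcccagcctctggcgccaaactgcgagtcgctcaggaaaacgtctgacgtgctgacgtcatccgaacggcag
A match is a description of letters only. Kif11 and Kif4 hold both motifs and had log2 fold changes near 0 between states, while Kif18a holds neither and was called.

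No ciliary kinesin passed the test between states in control clones. Kif3a, the motor shared by both kinesin-2 heterodimers, measured 53.4, 74.3, 82.4 and 90.6 CPM in G7, A4, D8 and H12, and 70.3, 72.0, 83.5 and 88.7 CPM in Co1, Co2, Co3 and AB. The groups overlapped almost wholly, with a log2 fold change of -0.07 (SE 0.16, adjusted p = 0.789) that turned to 0.01 (adjusted p = 0.968) without G7 and Co2. Kif3b, its partner in the heterotrimeric motor, measured 92.6 to 106 CPM in ciliated and 85.5 to 96.3 CPM in nonciliated controls and gave 0.16 (SE 0.10, adjusted p = 0.274), or 0.15 without G7 and Co2 (adjusted p = 0.375). Kif3c, an alternative partner of Kif3a, ranged from 39.7 to 73.1 and from 55.4 to 69.3 CPM and gave -0.21 (SE 0.17, adjusted p = 0.422), or -0.14 without those clones (adjusted p = 0.607). Annotated exons of Kif3c overlap 1110002L01Rik and Gm48512 on the opposite strand over 46.3% of their bases, and those of Kif7 overlap 9330171B17Rik and Ticrr, also opposite, over 20.3%. Kif17, the homodimeric kinesin-2, was at 0.42 to 1.47 CPM in ciliated and 0.192 to 0.729 CPM in nonciliated controls, with a log2 fold change of 1.04 (SE 0.51, adjusted p = 0.171), or 1.32 without G7 and Co2 (adjusted p = 0.121).

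Kif7, the kinesin-4 that organises the ciliary tip for hedgehog signaling, measured 14.5, 15.0, 18.2 and 19.6 CPM in H12, A4, D8 and G7, and 13.4, 13.9, 14.6 and 21.8 CPM in Co1, Co3, AB and Co2. Its log2 fold change was 0.09 (SE 0.18, adjusted p = 0.771). The highest value of each state was that of the clone low in Epcam, and the estimate was -0.02 without G7, 0.28 without Co2 (adjusted p = 0.215) and 0.17 without both (adjusted p = 0.422). Summed over the ciliary list, the arms overlapped, at 240 to 300.3 CPM in ciliated and 252 to 292 CPM in nonciliated controls. Kifap3, the adaptor of the kinesin-2 motor, was not called either (log2 fold change -0.33, SE 0.20, adjusted p = 0.273).

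Among transport kinesins, Kif13b was the only one called. It is a kinesin-3 that carries the scaffold protein Dlg1 (chr14:64652492-64809618, plus strand, GRCm38.p6). It measured 46.1, 49.4, 63.6 and 71.9 CPM in G7, D8, H12 and A4, and 26.0, 30.1, 31.3 and 36.8 CPM in Co1, Co2, Co3 and AB. The groups did not overlap. The log2 fold change was 0.88 (SE 0.22, adjusted p = 0.0185), a 1.84-fold higher level in ciliated cells, and the call was lost without Co1 (adjusted p = 0.0649) or A4 (0.0526). It was 0.94 without G7 and Co2 (adjusted p = 0.0266). Kif5b, Kif1c, Kif1b, Kif13a and Kif16b had log2 fold changes of -0.25 (SE 0.16), 0.27 (SE 0.12), -0.07 (SE 0.20), 0.34 (SE 0.14) and 0.22 (SE 0.13), none of which passed. Without G7 and Co2 they were -0.24, 0.29, -0.08, 0.31 and 0.19, again none called (adjusted p from 0.0550 for Kif13a to 0.815 for Kif1b). Over all control clones, Kif5c, Kif21b, Kif5a and Kif21a gave -1.24 (SE 0.87), -0.93 (SE 0.92), 0.52 (SE 0.38) and -0.27 (SE 0.57). These were not called either (adjusted p from 0.341 for Kif5c to 0.771 for Kif21a).

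Kif12, which is known from epithelial cells of kidney and bile duct, had the largest change among the called members (chr4:63157948-63172145, minus strand, GRCm38.p6). It measured 22.0, 23.0, 43.8 and 64.7 CPM in A4, D8, G7 and H12, and 4.99, 6.90, 7.21 and 15.7 CPM in Co1, Co2, Co3 and AB. Every ciliated control lay above every nonciliated one, although clones ranged 2.94-fold in CPM within ciliated and 3.14-fold within nonciliated controls. Kif12 was 4.49-fold higher in ciliated controls (log2 fold change 2.17, SE 0.53, adjusted p = 0.0179). The call was lost without Co1 (adjusted p = 0.0621), Co3 (0.0543) or H12 (0.0509), and without G7 and Co2 together, where the log2 fold change was 1.98 (adjusted p = 0.0537).

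**Figure D2:**
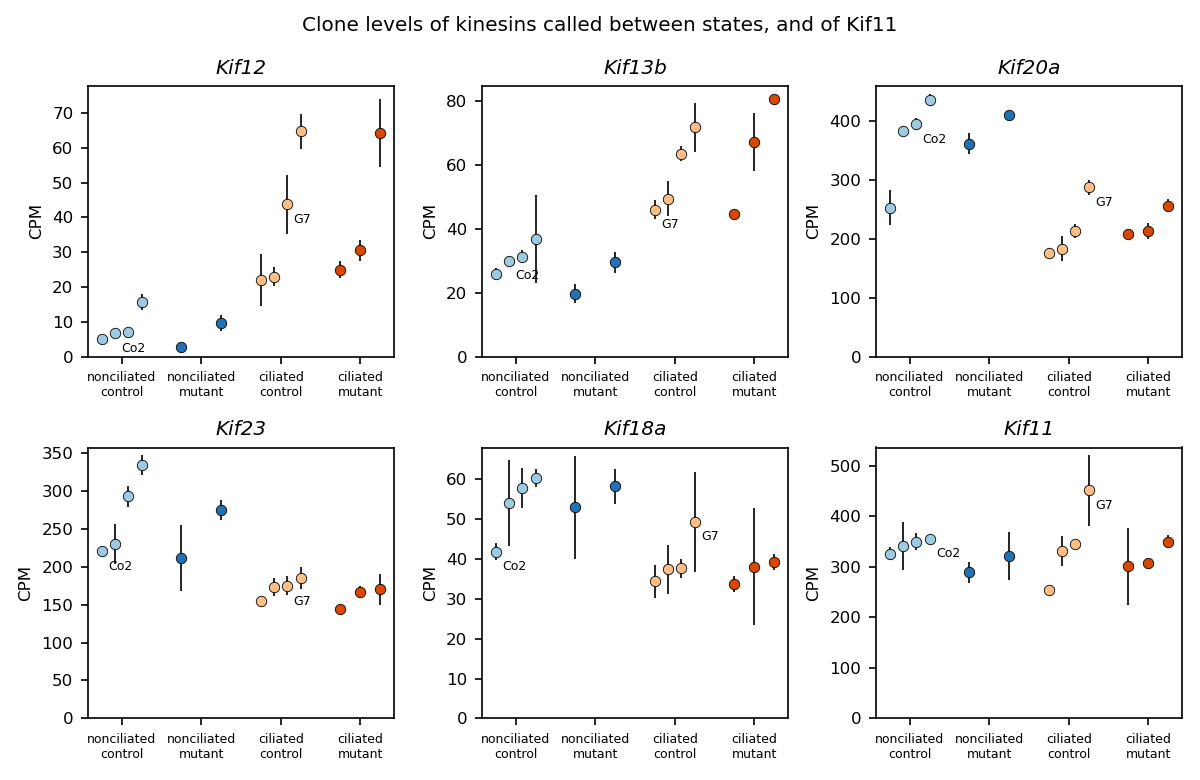
Levels in CPM (linear axes from 0) of the 5 kinesins called between states in control clones and of Kif11, which was not called. Each point is a clone, ordered by level within its group, with the SD over its 4 libraries as a bar, and G7 and Co2 are named at the lower right of their points. Kif12, Kif13b and Kif23 do not overlap between ciliated and nonciliated controls, Kif20a and Kif18a cross in the clones named in the text, and Kif11 spans 253 to 451 CPM in ciliated controls.

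The same comparison between mutant clones, 3 ciliated and 2 nonciliated, sets other clones against each other, but the comparisons are not independent, since the spread, scaling and filter come from 1 fit over all 13 clones. Kif12 and Kif13b were again higher and Kif18a lower in ciliated cells, 3 of 32 tested members (9.38%) against 12.9% of all genes. The 2 higher are 6.25% of the members against 5.32% of genes, and the 1 lower is 3.12% against 7.53%. With each library as a sample 14 of 30 kinesins were called, 46.7% against 60.4% of genes. Kif12 measured 25.0, 30.5 and 64.3 CPM in the ciliated clones Wdr34-3, Wdr34-1 and Wdr60, and 2.71 and 9.64 CPM in the nonciliated clones Wdr34 and Wdr60. It was 6.41-fold higher in ciliated mutants (log2 fold change 2.68, SE 0.74, adjusted p = 0.0371). With 1 clone or replicate number left out, the log2 fold change of Kif12 ranged from 2.04 to 3.85. Kif13b measured 44.8, 67.2 and 80.7 CPM in Wdr34-3, Wdr60 and Wdr34-1, and 19.7 and 29.6 CPM in the nonciliated Wdr34 and Wdr60 clones. Neither gene overlapped between states. Kif13b rose 2.57-fold (log2 fold change 1.36, SE 0.29, adjusted p = 0.0149), a call lost without the nonciliated Wdr34 clone (adjusted p = 0.180), which leaves 1 nonciliated clone whose spread is taken from the other groups. The call of Kif12 was also lost without that clone (adjusted p = 0.275), and without the nonciliated Wdr60 (0.0542), Co3 (0.0514), Wdr34-1 (0.0637) or ciliated Wdr60 (0.0872) clone, or replicate 1 of every clone (0.0601).

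Kif18a measured 33.8, 38.1 and 39.4 CPM in the ciliated mutants Wdr34-3, Wdr60 and Wdr34-1, and 53.0 and 58.3 CPM in the nonciliated Wdr60 and Wdr34 clones, a fall by 0.60 on the log2 scale (SE 0.18, adjusted p = 0.0469). The groups did not overlap, but the call lies at the threshold and was lost under most alternatives, among them leaving out any of 11 clones. Kif20a (208, 214 and 257 CPM against 362 and 410 CPM) and Kif23 (144, 167 and 170 CPM against 211 and 275 CPM) did not overlap either. Their log2 fold changes were -0.78 (SE 0.24) and -0.61 (SE 0.19), near those in control clones, with adjusted p of 0.0559 and 0.0574. Without G7 and Co2, both passed (adjusted p = 0.0299 and 0.0429), and Kif12, Kif13b and Kif18a stayed called at 2.68, 1.36 and -0.60 (adjusted p = 0.0361, 0.0118 and 0.0107).

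Of 11 mitotic kinesins, 10 had negative estimates in mutants, with a median log2 fold change of -0.30 against 0.04 over all genes, and 8 lay wholly below in ciliated mutants. In all, 10 members lay wholly below and 5 wholly above, shares of 31.2% and 15.6% where 26.3% and 26.1% of all genes did so. Summed mitotic kinesins held 1342 to 1504 CPM in ciliated and 1706 to 1840 CPM in nonciliated mutants. No ciliary kinesin was called, with Kif3a at -0.09 (SE 0.21), Kif3b at 0.04 (SE 0.12), Kif3c at -0.05 (SE 0.22), Kif7 at -0.07 (SE 0.24) and Kif17 at 0.80 (SE 0.67), values that differed by less than 0.01 without G7 and Co2.

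**Figure D3:**
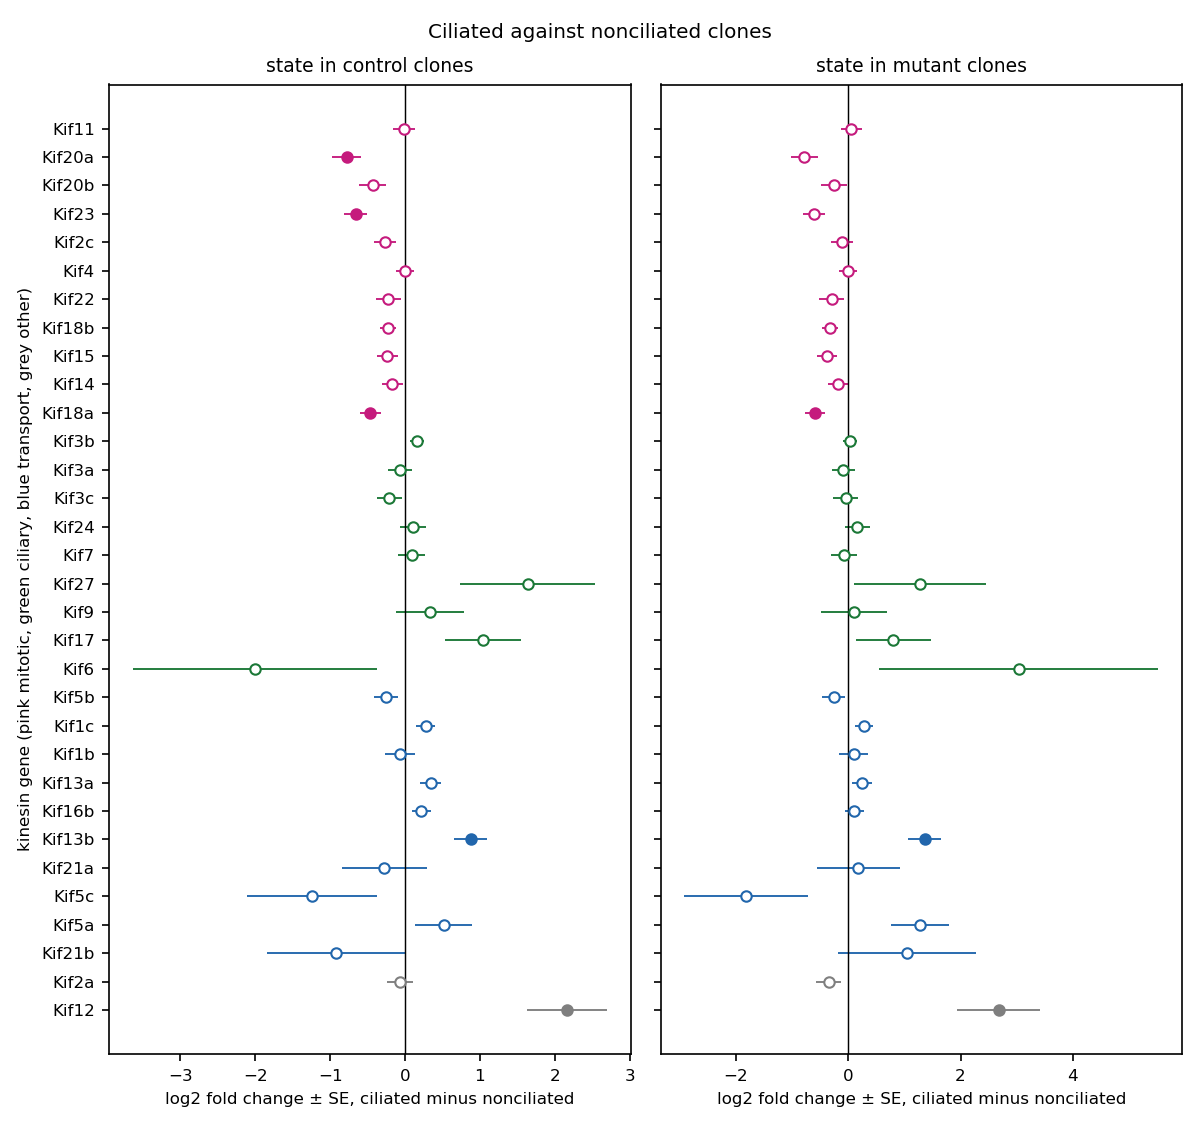
Log2 fold change ± SE of each tested kinesin, ciliated minus nonciliated, in control clones (left) and mutant clones (right), by edgeR's quasi-likelihood test on clone sums. Filled points passed an adjusted p of 0.05 and open points did not, and the panels have separate horizontal scales. Kif12 (2.17 and 2.68) and Kif13b (0.88 and 1.36) are filled to the right in both panels and Kif18a (-0.46 and -0.60) to the left.

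A list of 14 related genes, of which 13 were tested, held kinesins that the name rule leaves out (Cenpe, Kifc1, Kifc2, Kifc3 and Kifc5b, with Stard9 not analysed here), the kinesin light chains and the partners Kifap3, Kif1bp, Trak1 and Trak2. In controls 4 were higher in ciliated cells, where 8.98% of all genes were, and 0 lower, where 9.46% were. The mitotic motors Cenpe, at -0.52 (SE 0.28, adjusted p = 0.208), and Kifc1, at 0.30 (SE 0.23, adjusted p = 0.386), were not called. Kifc3, a minus-end directed kinesin that acts at epithelial junctions, ranged from 51.4 to 89.0 CPM in ciliated and 26.9 to 29.3 CPM in nonciliated controls (log2 fold change 1.31, SE 0.22, adjusted p = 0.0036). Trak1, the adaptor that links kinesin-1 to mitochondria, ranged from 41.9 to 48.0 and from 24.8 to 35.1 CPM (0.65, SE 0.12, adjusted p = 0.0058). Kifc2 and the kinesin light chain Klc4 were the other two, at 1.61 (SE 0.45, adjusted p = 0.0295) and 0.88 (SE 0.26, adjusted p = 0.0359). These 4 stayed called without G7 and Co2, at 1.25 for Kifc3, 0.75 for Trak1, 1.72 for Kifc2 and 0.91 for Klc4 (adjusted p = 0.0109, 0.0037, 0.0486 and 0.0416), while Cenpe was at -0.81 and Kifc1 at 0.25, neither called (adjusted p = 0.0702 and 0.426). Kifc3 and Trak1 were the 2 called in mutant clones, both higher, where 5.32% of all genes were, at 1.62 (SE 0.29, adjusted p = 0.0090) and 0.61 (SE 0.16, adjusted p = 0.0299).

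The comparison of mutant with control clones asked whether a dynein-2 intermediate chain defect goes with other kinesin levels. Each mutant group pools clones of different genes and alleles, so the tests concern an average over them. Differences between these lines count as spread, and an effect of a single gene or allele was not tested. The ciliated and nonciliated mutant groups do not hold the same alleles, which also enters each comparison of mutants between states. In ciliated cells 0 of 32 kinesins were called, as were 0.0% of the 13994 genes. DESeq2 on the clone sums also called 0 kinesins, with 1 higher and 2 lower genes in all. At an unadjusted p under 0.05 there were 2 kinesins (6.25%) and 1.94% of all genes, but 0 kinesins and 4.45% of genes without G7, and 0 kinesins and 5.68% without G7 and Co2. The 2 were Kif15, which helps Kif11 to keep the spindle bipolar, and Kif2a, a kinesin-13 that depolymerises microtubules.

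Kif15 measured 44.3, 51.2 and 60.9 CPM in the ciliated mutants Wdr34-3, Wdr34-1 and Wdr60, and 50.5, 66.1, 69.4 and 83.8 CPM in the controls A4, H12, D8 and G7. Wdr34-1 and Wdr60 lay above the lowest control, so the groups overlapped, with a log2 fold change of -0.35 (SE 0.15, unadjusted p = 0.0415). Kif2a measured 66.4, 66.5 and 75.6 CPM in Wdr34-1, Wdr60 and Wdr34-3, and 59.6, 93.5, 103 and 122 CPM in H12, G7, A4 and D8, so that H12 lay below every mutant. It gave -0.43 (SE 0.19, unadjusted p = 0.0479). The adjusted p of both was 0.9999. The values without G7 and Co2 were -0.25 for Kif15 and -0.44 for Kif2a (adjusted p = 0.824 and 0.818). With each library as a sample both were called (adjusted p = 0.0218 and 0.00896) among 6.57% of genes.

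In nonciliated cells 0 of 32 kinesins were called and 0.0% of genes, with 0 kinesins at an unadjusted p under 0.05 (3.69% of genes) and 0 by DESeq2, which called 1 higher and 13 lower genes in all. With each library as a sample, 0 of 30 kinesins were called against 10.5% of genes. A mutant effect that differs between states, tested as an interaction, was called for 0 kinesins and 0.0% of genes, with 0 kinesins at an unadjusted p under 0.05 (0.972% of genes) and 0 genes by DESeq2, and with each library as a sample it was called for 0 of 30 kinesins against 1.89% of genes. For the kinesin-2 subunits Kif3a, Kif3b and Kif3c and for Kif7, the estimates over all clones lay between -0.12 and 0.06. In ciliated cells Kif3a gave -0.00 (SE 0.17), Kif3b -0.06 (SE 0.10), Kif3c 0.04 (SE 0.18) and Kif7 -0.12 (SE 0.20), and in nonciliated cells 0.01 (SE 0.20), 0.06 (SE 0.12), -0.12 (SE 0.21) and 0.04 (SE 0.22). Without G7 and Co2, Kif3a, Kif3b, Kif3c and Kif7 gave -0.14, -0.07, -0.06 and -0.03 in ciliated and -0.04, 0.04, -0.16 and 0.22 in nonciliated cells, none called. Kif3a stood at 67.9, 77.3 and 78.9 CPM in the ciliated and 69.6 and 88.1 CPM in the nonciliated mutants, within the range of the controls of each state but for the 69.6 CPM of the nonciliated Wdr34 clone, just under the 70.3 CPM of Co1. Kif17, at 0.286 to 1.09 CPM in mutants, gave -0.33 (SE 0.55) and -0.08 (SE 0.62), or -0.56 and -0.05 without G7 and Co2, with 2 to 37 counts in a library behind these values.

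Without a model, Kif21a, a kinesin-4 that dampens microtubule growth at the cell cortex, was the 1 kinesin whose ciliated mutants all lay above all controls (1.21% of all genes did), at 18.2, 18.6 and 24.9 CPM against 9.57, 10.1, 15.9 and 16.7 CPM. Its log2 fold change of 0.66 (SE 0.61), or 0.56 without G7 and Co2, was not called. No kinesin lay wholly below in ciliated mutants (0.886% of genes). In nonciliated mutants 0 lay wholly above (6.48% of genes) and Kif11, Kif15, Kif21b, Kif2a and Kif6 wholly below, 15.6% of the tested members against 6.52% of genes. Of these, Kif11 measured 288 and 321 CPM against 325 to 356 CPM, a log2 fold change of -0.17 (SE 0.18), or -0.16 without G7 and Co2. Kif6 and Kif21b lay near the floor. Kif6 was at 0 to 0.0481 CPM in nonciliated mutants against 0.288 to 0.546 CPM in nonciliated controls. Kif21b had 149 counts over all libraries. None of these kinesins reached an unadjusted p under 0.05 by edgeR in nonciliated cells.

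**Figure D4:**
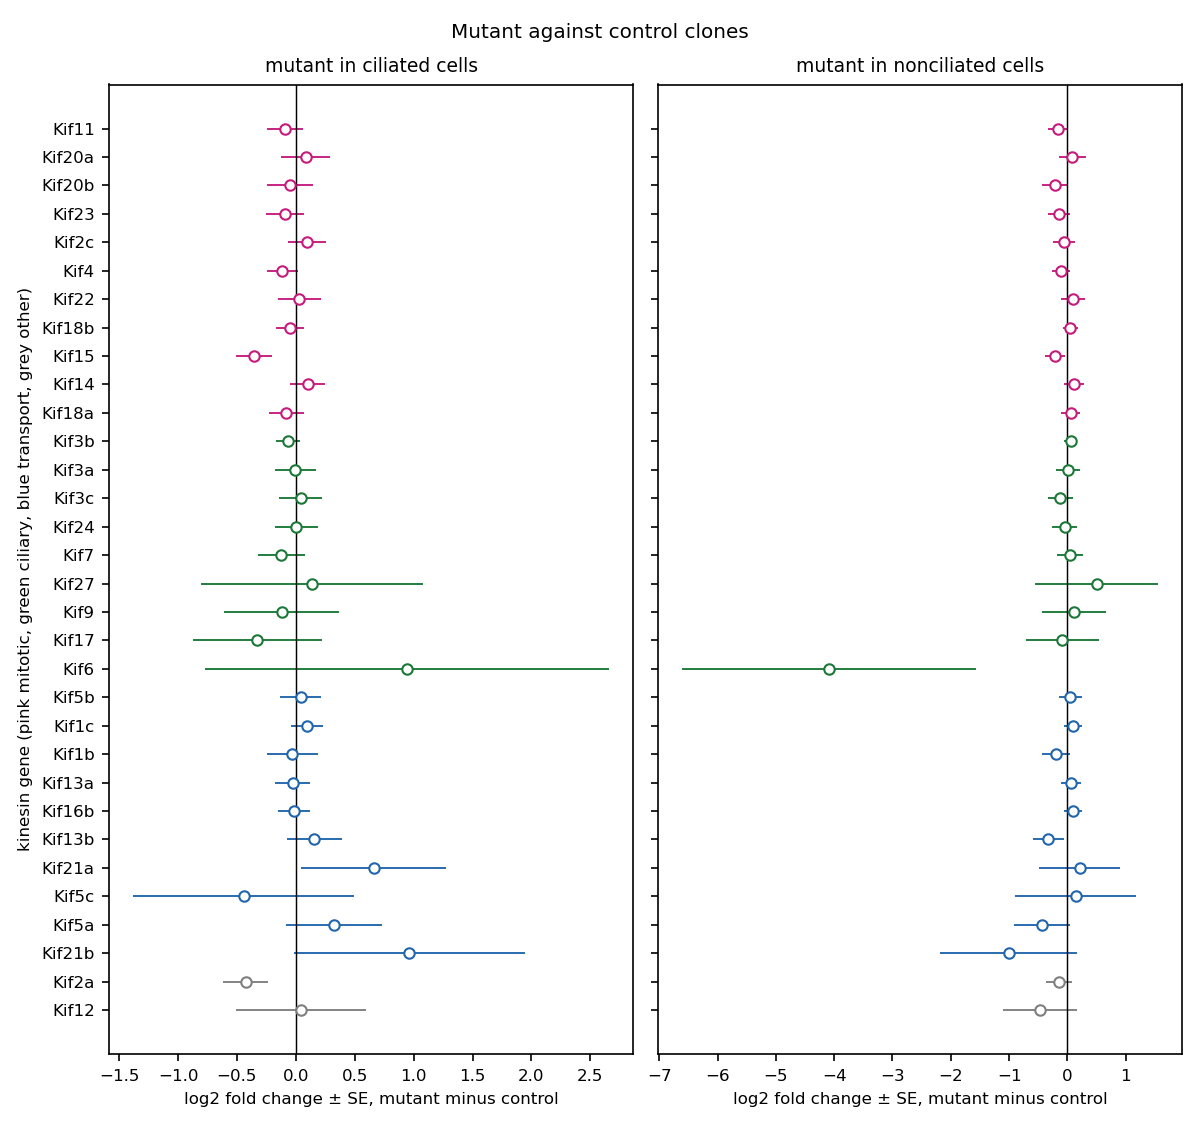
Log2 fold change ± SE of each tested kinesin, mutant minus control, in ciliated cells (left) and nonciliated cells (right), by edgeR's quasi-likelihood test on clone sums, with separate horizontal scales. All points are open because none passed an adjusted p of 0.05, the kinesin-2 subunits Kif3a, Kif3b and Kif3c lie between -0.12 and 0.06, and the widest bars belong to low genes such as Kif6.

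Control clones of 1 state differed among themselves. With libraries as samples, so that the test sets clones against technical spread, 30 of 30 tested kinesins differed among ciliated controls, where 85.4% of genes did, and 22 of 30 among nonciliated controls, where 80.5% did. A range of at least 1 in log2(CPM + 0.5), an offset that narrows the range of low genes, was reached by 6 kinesins in ciliated (29.6% of genes) and 5 in nonciliated controls (21.9%).

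Kif27, a paralog of Kif7 known from motile cilia, measured 0.293, 5.42, 9.10 and 13.6 CPM in G7, A4, D8 and H12, and 0.578, 1.15, 2.87 and 4.57 CPM in Co2, Co1, Co3 and AB. The highest clone was 46.4-fold above the lowest in ciliated and 7.90-fold in nonciliated controls, from few counts at the low end. Set against technical spread only, Kif27 differed among clones (adjusted p = 1.4e-10 and 9.0e-09), as did 85.4% and 80.5% of genes. G7 and Co2 were lowest in their states, as for Kif9, a motile cilium kinesin, which stood at 1.07 CPM in G7 against 3.71 to 5.19 CPM in the other ciliated controls and at 1.50 CPM in Co2 against 2.92 to 3.91 CPM. Kif5c, a kinesin-1 heavy chain best known from neurons, measured 0.251, 2.72, 3.87 and 15.1 CPM in G7, A4, H12 and D8, and 5.05, 5.07, 14.0 and 27.4 CPM in Co2, Co1, AB and Co3. Kif21a ranged from 2.98 CPM in Co2 to 38.8 CPM in AB, with 9.64 and 11.0 CPM in Co3 and Co1. The part of the epithelial change of G7 and Co2 in these levels was not tested.

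**Figure D5:**
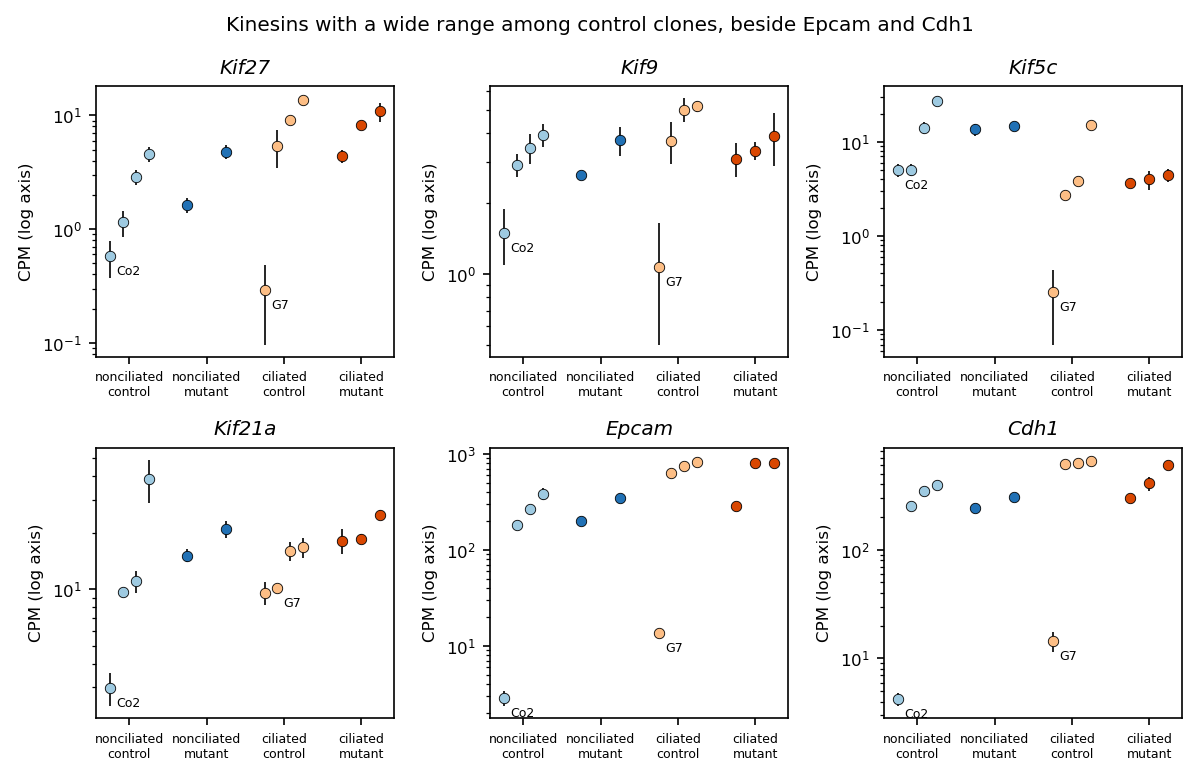
Levels in CPM (log axes) of 4 kinesins that range widely among control clones, beside the epithelial genes Epcam and Cdh1. Each point is a clone, ordered by level within its group, with the SD over its 4 libraries as a bar. G7 is the lowest ciliated control for Kif27, Kif9, Kif5c, Epcam and Cdh1, and Co2 the lowest nonciliated control for all 6 genes shown.

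Kif26b, an atypical kinesin of kidney development without motor activity, was too low to be tested, and most of its counts came from 1 clone. The ciliated mutant Wdr34-3 held 148 of its 166 counts, at 1.96 CPM (1.71 to 2.29 CPM in its 4 libraries), against at most 0.0877 CPM in any other clone. The same clone carried the highest fibroblast list. Nothing in the labels says that the 4 libraries of a clone came from separate cultures, so the spread over clones is the only biological error here, and for groups of 2 to 4 clones it limits what these comparisons could show.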

How the data were processed

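Per the labels and methods, the authors mapped the reads with Rsubread (R 3.4.4) against mouse build GRCm38/mm10 and assigned them to symbols by featureCounts. What they deposited is 1 unnormalized count for each symbol and library. The authors' own tests used DESeq2 1.18.1. Strand setting and handling of reads that fit several genes are not given in the sources used here, so near-identical or overlapping genes are uncertain.

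The counts of the 4 libraries of each clone were summed and taken to edgeR 4.0.16 (R 4.3.3, limma 3.58.1): filterByExpr by the 4 arms, TMM, 1 quasi-likelihood fit over 13 clone sums, 2-sided tests, Benjamini-Hochberg adjustment over 13994 genes, calls at an adjusted p under 0.05. Each library as a sample was run as an alternative, as were DESeq2 1.42.0, RLE size factors, other filters and thresholds, a replicate block, fits within each state, and each clone or replicate number left out. Leaving out G7 and Co2, or library 1 of AB and library 1 of nonciliated Wdr60, was added after seeing the data. Among libraries that deviate most from the rest of their clone, these have an SD of 0.530 and 0.431 in log2, beside 0.432 and 0.377 for libraries 2 and 3 of ciliated Wdr60, 0.390 for library 4 of G7 and 0.359 for library 1 of A4, which were not left out alone. Coordinates and promoters are from RefSeq, GRCm38.p6. Exon lengths and exon overlaps are from the GENCODE basic annotation, whereas the authors counted with the iGenomes annotation. Levels per kb and shares of overlap may therefore differ from those of the exons counted. CPM on a log2 scale had 0.5 added. Named were called members, kinesin-2 subunits, Kif7 and members far higher in 1 clone; Kif15, Kif2a, Kif18b, Kif11, Kif4, Kif21a and the clone-varying genes were added from the listed counts and tests after their values were seen. The members and lists were chosen with earlier results of these data known.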

Additional observations from a re-analysis of the deposited data

Results flagged for a closer look

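In groups of 4 control clones, 64 groups of a kinesin and a state were tested for a clone far from the others on the scale of log2(CPM + 0.5), of which 2 exceeded Dixon's critical value for 4 values; chance gives about 1 in 20. Kif6, a motile cilium kinesin, measured 0.407 CPM in the ciliated control D8 and 0 to 0.0133 CPM in the other 3, a gap of 0.956 of the range on that scale. Kif7 measured 21.8 CPM in the nonciliated control Co2 and 13.4 to 14.6 CPM in the other 3, a gap of 0.833 of the range on that scale. Co2 is the nonciliated control with the lowest Epcam (2.86 CPM), and the part of this in the level of Kif7 was not tested.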

How the results depend on the processing

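Between states in control clones, 2 kinesins were higher and 3 lower. With each library as a sample these became 8 and 10, with the replicate block added also 8 and 10, and without G7 and Co2 together 1 and 4. Asking for a log2 change of 1 or more left 1 higher and 0 lower, where 514 and 357 of 13994 genes were left. An adjusted p under 0.01 left 0 and 0, where 347 and 463 of 13994 genes were left. Between states in mutant clones, 2 were higher and 1 lower. Those higher became 6 with each library as a sample, 5 with the replicate block and 0 at an adjusted p under 0.01. All genes called higher numbered 3855 of 12544 with the block and 64 of 13994 at an adjusted p under 0.01. Those lower became 0 with RLE size factors, without a filter, and without library 1 of AB and of nonciliated Wdr60. They also became 0 when a log2 change of 1 or more or an adjusted p under 0.01 was asked for. In the same order, all genes called lower numbered 1013 of 13994, 799 of 18680, 990 of 14006, and 446 and 178 of 13994. Kinesins called lower became 2 with at least 10 counts in every clone, 3 with DESeq2 and 3 without G7 and Co2. They became 8 with each library as a sample, with or without the replicate block. Mutants in ciliated cells went from 0 to 2 with each library as a sample, with or without the block. Among control clones, a range of at least 1 left 6 of 30 and 5 of 22.

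Leaving out 1 clone or replicate number gave 0 to 3 higher and 1 to 4 lower in control clones (without Co1, 0 and 1) and 0 to 2 higher and 0 to 2 lower in mutant clones; calls of mutants and of the interaction stayed at 0 to 0. Direction turned for uncalled members only. Over clones and replicate numbers left out, Kif3a in controls ranged from -0.19 (without H12) to 0.051 (without G7) and was 0.0097 without G7 and Co2, and Kif7 ranged from -0.019 (without G7) to 0.28 (without Co2). In mutants Kif3a ranged from -0.24 to 0.082 (without the nonciliated Wdr34 and Wdr60), Kif3b from -0.043 to 0.12 (the same clones) and Kif3c from -0.10 (without Wdr34-1) to 0.042 (without Wdr34-3). The cause was not tested.

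Over all genes, 1256 higher and 1324 lower in controls became 3992 and 3768 with each library as a sample, 3906 and 3719 with the replicate block added, and 530 and 648 without Co1. In mutants 745 and 1054 became 3933 and 3639 with each library as a sample, 1467 and 1525 with DESeq2, and 3 and 28 without the nonciliated Wdr34. Without G7 and Co2 these were 1356 and 1535 in controls and 1325 and 1572 in mutants, of 13898 genes, and with at least 10 counts in every clone 857 and 1084 in mutants, of 11731. Over 312 pairs of same-numbered libraries of different clones the correlation of deviations ranged from -0.63 to 0.81 (median -0.01), and 24.4% of pairs were over 0.1, so the numbers were not taken as a pairing and the replicate block is an alternative only. Counts near 0, as for Kif6, Kif17 and Kif21b, limit what can be shown for them.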
